A study of Homo sapiens with 8 samples.

Results

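The proteasome subunit mRNAs are the transcripts of 34 genes that encode the 26S proteasome, the protease that degrades ubiquitin-tagged proteins. They were chosen by name, 17 genes of the 20S core and 17 genes of the 19S cap, from 58735 genes in the deposited tables. The tables gave an expected count for each of 206601 transcripts, and these counts were summed by gene. All 34 genes were among the 18242 genes that held enough reads to be tested, so none was lost to the filter.

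The RNA came from BEAS-2B, an established human bronchial epithelial cell line grown on collagen-coated inserts at the air-liquid interface. Clean air (CA) cultures received humidified clean air and formaldehyde (FA) cultures received air with 1 ppm formaldehyde, both for 2 h with 6 h of recovery. For each treatment the rRNA-depleted RNA pool was divided into an input fraction, sequenced as it was, and a pull-down fraction, recovered with an antibody against 8-oxoG, an oxidized form of guanosine. The 8 libraries form 4 groups of 2 biological replicates, CA input, FA input, CA pull-down and FA pull-down, and the deposited tables number the replicates 1 and 3.

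Input libraries held 26152651 to 45144392 expected counts and pull-down libraries 16883500 to 23658012. Mitochondrially encoded RNA took 13.5% to 14.8% of the counts in input and 9.60% to 11.3% in pull-down, and small structured RNAs took 10.5% to 13.003% and 6.86% to 8.13%. The part of these shifts in the pull-down values was not tested. All 8 epithelial markers and all 4 mesenchymal genes that were looked up passed the filter, led by KRT7, a simple-epithelium keratin, at 1452 to 2455 CPM, read counts scaled to a common library total. Of the other cell type markers looked up, 1 of 4 leukocyte, 2 of 3 endothelial and 0 of 3 airway genes passed the filter. PTPRC, the pan-leukocyte gene, had 0 to 2 counts in each library and CD14, a monocyte gene, 4.30 to 7.43 CPM. The endothelial genes PECAM1 and CDH5 had 9 to 26 and 3 to 15 counts. SCGB1A1 of club cells had 0 to 2 counts, FOXJ1 of ciliated cells 0 to 7 and the goblet cell mucin MUC5AC 0 to 3.

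The 20S core is a barrel of stacked rings. Its outer alpha rings form the gate, and its inner beta rings hold the catalytic subunits PSMB5, PSMB6 and PSMB7, which cut after hydrophobic, acidic and basic residues. In the immunoproteasome these are replaced by PSMB8, PSMB9 and PSMB10, which interferon induces. The 19S cap binds ubiquitin-tagged proteins, removes the ubiquitin, unfolds the substrate with a ring of ATPases and feeds it into the core. Subunit genes are known to be transcribed in concert, and the transcription factors NFE2L1 and NFE2L2, which bind antioxidant response elements, raise them when proteasomes are impaired or cells are under oxidative stress.

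The antibody recognizes oxidized guanines, so the coding sequences of 4 members are shown with every guanine in capitals. They belong to the members with the highest and lowest log2 fold change (log2FC) of FA pull-down against FA input in the core (PSMB10 and PSMB3) and in the cap (PSMD3 and PSMD12). Each is the in-frame window of 240 bases whose guanine share lies nearest that of the whole coding sequence, taken from the member's most abundant isoform in GENCODE 44 (GRCh38). The PSMB10 window is coding bases 67 to 306 with 77 guanines, from a gene at chr16:67934506-67936864 on the minus strand. For PSMB3 it is coding bases 76 to 315 with 66 guanines, from chr17:38752741-38764225 on the plus strand. The PSMD3 window spans coding bases 160 to 399 with 67 guanines, from chr17:39980807-39997959 on the plus strand. That of PSMD12 spans coding bases 94 to 333 with 55 guanines, from chr17:67337916-67366605 on the minus strand. In these windows of equal length PSMB3 and PSMD3 carry almost equal numbers of guanines. Their whole coding sequences, of 615 and 1602 bases, have similar guanine shares of 27.6% and 27.8%. PSMB3 had the lowest pull-down log2FC of the core and PSMD3 the highest of the cap.
PSMB10: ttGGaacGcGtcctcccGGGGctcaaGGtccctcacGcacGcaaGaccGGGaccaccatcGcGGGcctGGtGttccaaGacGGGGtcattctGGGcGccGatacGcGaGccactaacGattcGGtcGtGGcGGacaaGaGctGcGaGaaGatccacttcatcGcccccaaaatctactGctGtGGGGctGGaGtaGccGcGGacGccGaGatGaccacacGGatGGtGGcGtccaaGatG
PSMB3: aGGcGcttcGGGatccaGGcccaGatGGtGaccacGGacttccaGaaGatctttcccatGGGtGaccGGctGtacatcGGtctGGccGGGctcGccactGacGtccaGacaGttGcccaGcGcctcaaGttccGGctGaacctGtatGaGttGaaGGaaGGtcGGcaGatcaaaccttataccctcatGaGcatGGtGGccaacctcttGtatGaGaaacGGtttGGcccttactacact
PSMD3: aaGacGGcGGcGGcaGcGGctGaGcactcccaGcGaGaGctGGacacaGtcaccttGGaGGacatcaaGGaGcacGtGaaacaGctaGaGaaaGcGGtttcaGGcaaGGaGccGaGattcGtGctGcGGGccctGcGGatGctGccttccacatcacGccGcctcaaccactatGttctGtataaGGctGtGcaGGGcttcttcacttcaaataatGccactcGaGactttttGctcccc
PSMD12: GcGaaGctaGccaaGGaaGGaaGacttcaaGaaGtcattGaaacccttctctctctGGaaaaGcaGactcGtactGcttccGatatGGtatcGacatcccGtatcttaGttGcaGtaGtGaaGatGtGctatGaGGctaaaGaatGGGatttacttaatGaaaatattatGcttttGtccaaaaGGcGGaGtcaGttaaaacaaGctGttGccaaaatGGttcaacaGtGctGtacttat

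Which subunit mRNAs were over- or under-represented in the 8-oxoG pull-down was asked by comparing pull-down with input in each treatment. Most members had a slightly higher mean in pull-down, and PSMB3 (ENSG00000277791), a structural subunit of the beta ring, was lower in both treatments. PSMB3 had 165.7 and 167.8 CPM in CA input against 92.5 and 109.6 CPM in CA pull-down, and 189.5 and 177.6 CPM in FA input against 104.7 and 115.8 CPM in FA pull-down. Every pull-down library lay below every input library. The log2FC was -0.73 ± 0.10 (SE) in FA and -0.72 ± 0.10 in CA, a fold of 0.601 and 0.606, with adjusted p = 0.0070 and 0.0065 by edgeR's quasi-likelihood test. The call in FA was lost when either FA input or either FA pull-down library was left out (adjusted p = 0.109 and 0.0542 without FA input replicate 1 and 3, 0.0901 and 0.0563 without FA pull-down replicate 1 and 3). In CA it was lost without CA pull-down replicate 1 (adjusted p = 0.0517). The log2FC stayed between -0.79 and -0.66 in FA and between -0.85 and -0.61 in CA over all 8 omissions.

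PSMB3 was the only member past the adjusted limit of 0.05 in either treatment. With FA, 1 of 34 members was lower, against 1.47% of all genes tested, and 0 were higher, against 0.0329%. In CA, 1 was lower and 0 were higher, against 1.77% and 0.148% of all genes. At an unadjusted p under 0.05, edgeR gave 13 members in FA (11 higher, 2 lower) and 14 in CA (12 higher, 2 lower), where 9.1% and 12.6% of all genes passed. The log2FC was above 0 for 28 members in FA and 26 in CA, against 50.7% and 52.4% of all genes. Its median over the members was 0.14 in FA and 0.12 in CA, and over all genes it was 0.0035 and 0.016.

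The calls depended on whether each pull-down library was set against the input of its own RNA pool. With the pool as a block, edgeR called 11 members higher in FA (5 of the core, 6 of the cap) and 15 in CA (7 of the core, 8 of the cap), where 5.45% and 11.6% of all genes were higher. It called 2 lower in both treatments, PSMB3 and PSMA2, where 4.6% and 5.85% of all genes were lower. Higher in FA were PSMA7, PSMB5, PSMB6, PSMB8, PSMB10, PSMC3, PSMC4, PSMD3, PSMD4, PSMD7 and PSMD13. CA gave these and PSMB7, PSMB9, PSMC5 and PSMD2. The log2FC values themselves were nearly those without the block. Scaling by library size in place of TMM moved the median of all genes to 0.17 in FA and 0.16 in CA and that of the members to 0.31 and 0.27, put 32 and 30 members above 0 and called 8 and 12 higher. Under that scaling 75.9% and 73.8% of all genes were above 0 and 1.74% and 4.5% were called higher. The values below are those without the block.

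**Figure D1:**
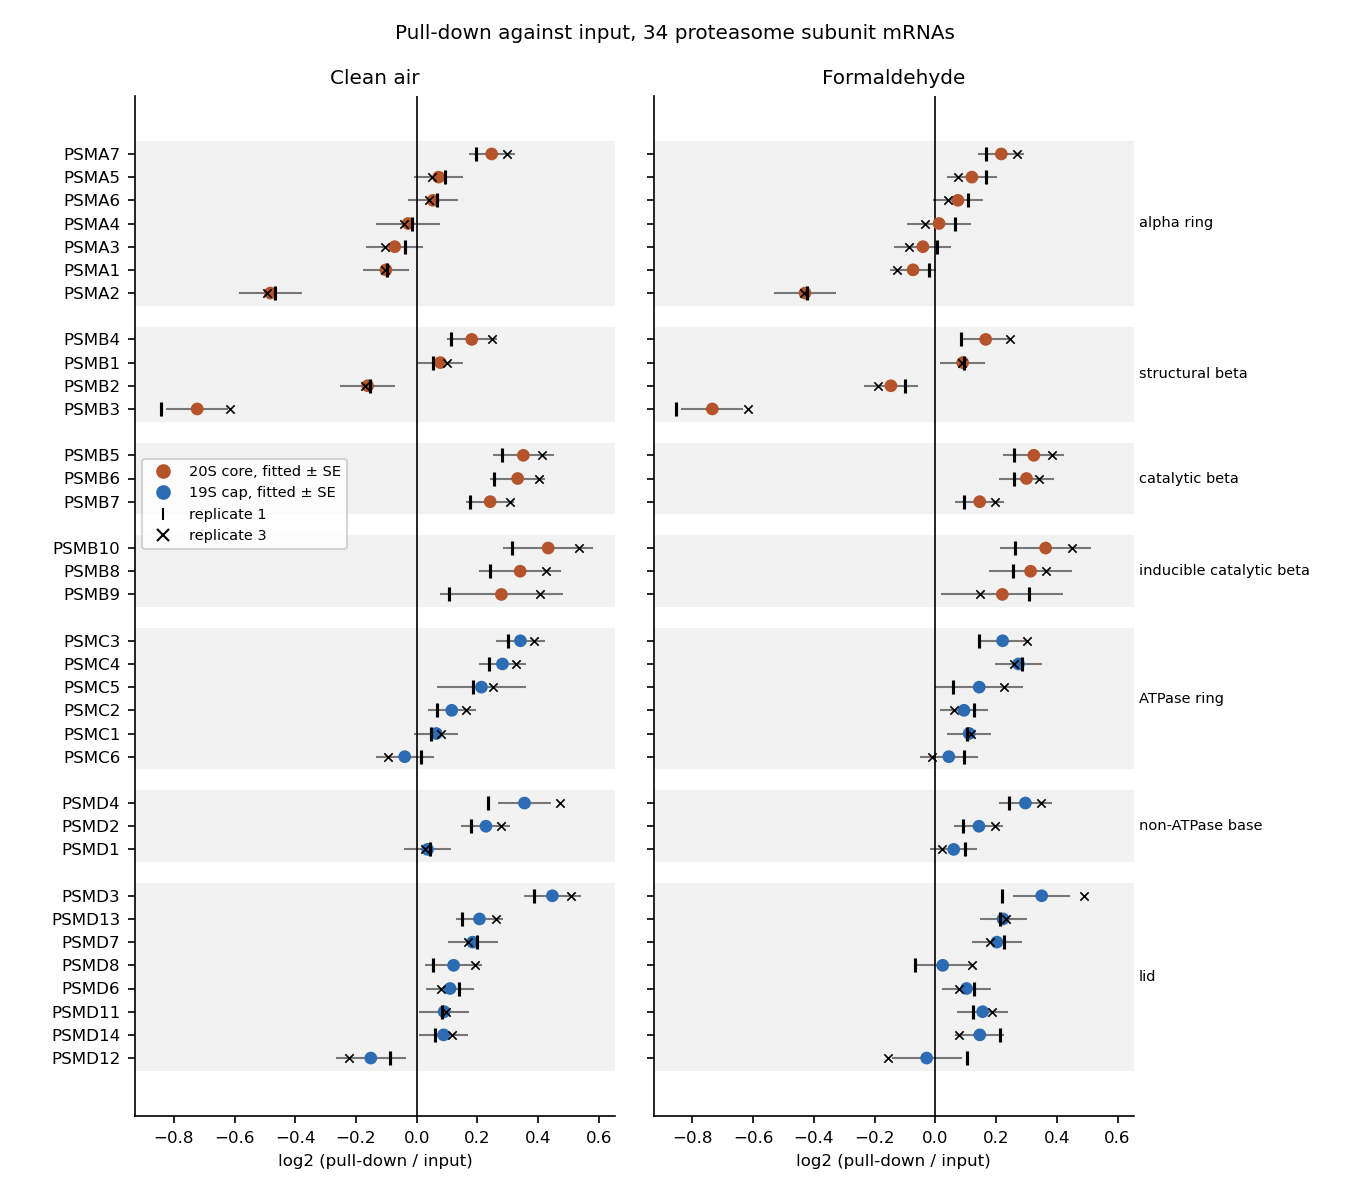
Log2 ratio of pull-down to input for the 34 subunit mRNAs, clean air on the left and formaldehyde on the right. Circles with bars are fitted values ± SE (brown for the 20S core, blue for the 19S cap), and ticks and crosses are the ratios of replicates 1 and 3. PSMB3 and PSMA2 lie apart on the left in both panels, and the 6 catalytic and inducible subunits lie to the right of 0.

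The gate-forming alpha ring held the widest range after the structural beta subunits. PSMA2 had 190.8 and 213.2 CPM in CA input, 137.9 and 151.4 in CA pull-down, 207.0 and 232.2 in FA input and 154.3 and 171.9 in FA pull-down. The groups did not overlap in either treatment. Its log2FC was -0.43 ± 0.10 in FA (adjusted p = 0.1247) and -0.48 ± 0.10 in CA (adjusted p = 0.0599), and with the RNA pool as a block the adjusted p was 3.67e-05 and 5.98e-06. PSMA7, the most abundant member, stood at the other end of the ring with log2FC 0.22 in FA and 0.25 in CA. The remaining 5 alpha subunits lay between -0.074 and 0.12 in FA and between -0.10 and 0.072 in CA. Among the 4 structural beta subunits, PSMB1 (0.09 and 0.08), PSMB2 (-0.15 and -0.16) and PSMB4 (0.17 and 0.18) were close to 0 beside PSMB3.

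All 6 subunits that carry a catalytic site, constitutive or inducible, had a higher mean in pull-down than in input in both treatments. The constitutive chymotrypsin-like subunit PSMB5 had 114.4 and 120.8 CPM in CA input against 139.1 and 161.0 CPM in CA pull-down. In FA it had 122.7 and 126.9 CPM in input against 146.6 and 165.8 CPM in pull-down. Both pull-down libraries of each treatment were above both inputs, with log2FC 0.32 ± 0.10 in FA and 0.35 ± 0.10 in CA (adjusted p = 0.277 and 0.156). The block by RNA pool gave adjusted p = 0.0022 and 0.00067.

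PSMB6, the caspase-like subunit, had 115.5 and 120.9 CPM in CA input and 137.8 and 159.9 in CA pull-down. In FA its values were 132.5 and 128.2 CPM in input and 158.5 and 162.5 in pull-down. The log2FC was 0.30 ± 0.091 in FA and 0.33 ± 0.091 in CA, with no overlap between the groups. PSMB7, the trypsin-like subunit, had 132.7 and 127.9 CPM in CA input and 149.9 and 158.4 in CA pull-down, then 155.6 and 156.6 in FA input and 166.0 and 179.4 in FA pull-down. It had the smallest log2FC of the constitutive trio, 0.15 ± 0.080 in FA and 0.24 ± 0.080 in CA, again without overlap.

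The interferon-inducible counterparts were less abundant and varied more between replicates. PSMB8 had 63.8 and 69.2 CPM in CA input and 75.4 and 93.1 in CA pull-down, and 69.3 and 78.1 in FA input and 82.7 and 100.5 in FA pull-down. PSMB10 had 25.3 and 27.5 CPM in CA input and 31.5 and 39.9 in CA pull-down, and 28.1 and 30.2 in FA input and 33.7 and 41.2 in FA pull-down. For these genes no pull-down value reached down to an input value of the same treatment. PSMB10 had the highest log2FC of the core, 0.36 ± 0.15 in FA and 0.43 ± 0.15 in CA (adjusted p = 0.503 and 0.251), and PSMB8 had 0.31 ± 0.14 and 0.34 ± 0.14. PSMB9 had 22.4 and 27.3 CPM in CA input and 24.2 and 36.2 in CA pull-down, and 27.3 and 34.1 in FA input and 33.8 and 37.8 in FA pull-down. Its groups overlapped in both treatments, and without CA pull-down replicate 3 its CA log2FC of 0.28 became -0.039. Counting did not use strand, and PSMB8 and PSMB9 overlap on opposite strands by 544 bases in the annotation, so reads from the shared stretch cannot be told apart. PSMB9 also overlaps TAP1 on the opposite strand.

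In the 19S cap no member was lower past the limit in either treatment, with or without the block. PSMD3, a scaffold subunit of the lid, had the highest log2FC of the cap. It had 129.0 and 121.1 CPM in CA input against 168.7 and 172.2 in CA pull-down, and 140.4 and 119.7 in FA input against 163.4 and 168.0 in FA pull-down. Neither treatment showed overlap, and the log2FC was 0.35 ± 0.094 in FA and 0.45 ± 0.094 in CA (adjusted p = 0.185 and 0.0562). PSMD12, also a scaffold subunit of the lid, had the lowest value of the cap, with 180.4 and 162.4 CPM in CA input, 169.6 and 139.1 in CA pull-down, 156.1 and 176.0 in FA input and 167.7 and 157.9 in FA pull-down. The groups overlapped, and its log2FC of -0.029 ± 0.12 in FA and -0.15 ± 0.12 in CA was within the spread.

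Among the 6 ATPases, which unfold substrates, log2FC ran from 0.044 (PSMC6) to 0.27 (PSMC4) in FA and from -0.040 (PSMC6) to 0.34 (PSMC3) in CA. The ubiquitin receptor PSMD4 had the highest value of the non-ATPase base, 0.30 in FA and 0.35 in CA (adjusted p = 0.246 and 0.101). The substrate-docking scaffolds PSMD2 (0.14 and 0.23) and PSMD1 (0.06 and 0.04) lay below it. PSMD14, the deubiquitinase of the lid, had 0.15 and 0.089. The other lid subunits PSMD6, PSMD7, PSMD8, PSMD11 and PSMD13 lay between 0.024 and 0.22 in FA and between 0.090 and 0.21 in CA.

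Core and cap differed in spread more than in level. The median log2FC in FA was 0.12 for the 17 core genes, with a range of -0.73 to 0.36, and 0.14 for the 17 cap genes, with a range of -0.029 to 0.35. In CA the medians were 0.078 and 0.12. Pull-down libraries lay wholly above input libraries for 10 core and 14 cap genes in FA and for 8 core and 13 cap genes in CA, against 18.9% and 22.9% of all genes. They lay wholly below for 4 core genes, PSMB3, PSMA2, PSMB2 and PSMA1, in both treatments and for 0 cap genes, against 18.5% and 18.1% of all genes. By role, the median log2FC in FA and CA was 0.012 and -0.029 in the alpha ring and -0.028 and -0.042 in the structural beta subunits. It was 0.30 and 0.33 for the constitutive catalytic subunits and 0.31 and 0.34 for the inducible ones. The ATPases had 0.13 and 0.16, the non-ATPase base 0.14 and 0.23 and the lid 0.15 and 0.12. No test of core against cap was made, since 2 libraries a group cannot reach the limit in a permutation test, and the difference of the medians changed sign when single libraries were left out.

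Summed over each complex and read within a library, the core took less than the cap in every pull-down library. The ratio of summed CPM, core to cap, was 0.960 and 1.06 in CA input, 1.02 and 1.07 in FA input, 0.883 and 0.976 in CA pull-down and 0.950 and 0.996 in FA pull-down. In each pool the pull-down ratio was below that of its own input, although the CA input values of 0.960 and 1.06 lay on both sides of the CA pull-down value of 0.976. The core sums include PSMB3 and PSMA2, which had the lowest pull-down log2FC of the core, and their part in these ratios was not tested. The 34 genes together made up 0.533% to 0.571% of the expected counts in input and 0.645% to 0.681% in pull-down.

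**Figure D2:**
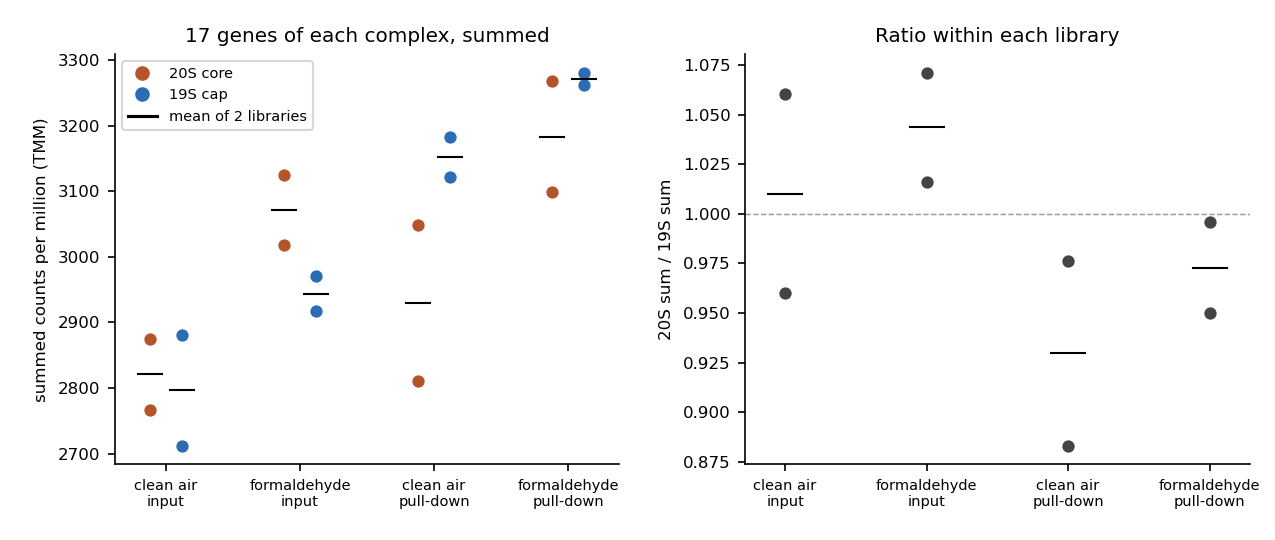
Left, CPM summed over the 17 core genes (brown) and the 17 cap genes (blue) in each library, with short lines for the mean of the 2 libraries. Right, the ratio of the sums within each library, which is under 1 in all 4 pull-down libraries and over 1 in 3 of the 4 input libraries; neither axis starts at 0.

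Whether formaldehyde changed the pull-down of subunit mRNAs was tested as the interaction, the log2FC of FA pull-down against FA input minus that of CA. No member passed, 0 of 34 at an adjusted or an unadjusted p under 0.05, beside 0% of all genes at the adjusted limit in each direction and 1.07% at the unadjusted one. With the RNA pool as a block 0 members passed either, and 0.11% of all genes were higher and 0.0274% lower. DESeq2 on all 8 libraries also called 0 members. The differences ran from -0.12 ± 0.11 (PSMC3) to 0.12 ± 0.16 (PSMD12), with -0.096 ± 0.11 (PSMB7) and 0.053 ± 0.15 (PSMA2) at the ends of the core. A value above 0 was seen in 16 of 34 members, against 44.6% of all genes. The 2 treatments share no library in these comparisons, and across the 34 members their log2FC values had Spearman's rho 0.938, as a description of genes measured in the same cell line and in the same fit.

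The formaldehyde effect on abundance was asked in the input libraries. In bulk RNA, fewer cells and less RNA per cell cannot be told apart. No member passed the adjusted limit, 0 of 34 higher and 0 lower, and in all genes 0% were higher and 0.00548% lower by edgeR. At an unadjusted p under 0.05 edgeR gave 1 member, PSMB7, against 3.35% of all genes, and DESeq2 called 0 members at its adjusted limit. Most members nonetheless had a slightly higher mean in FA, with a log2FC above 0 in 31 of 34, all 17 core genes and 14 cap genes, against 53.4% of all genes, and in 30 of 34 with library size in place of TMM, against 45.8%. The median was 0.12 for the core and 0.086 for the cap, a fold of 1.09 and 1.06, and 0.019 for all genes. In replicate 1 the FA to CA ratio was above 1 for 17 of 17 core and 12 of 17 cap genes, and in replicate 3 for 17 of 17 and 15 of 17. FA lay wholly above CA for 14 core and 8 cap genes, against 18.1% of all genes, and wholly below for 0 core genes and 1 cap gene, PSMC6, against 15.8%.

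PSMB7, the trypsin-like subunit whose input values are given above, had the smallest p of the members, with both FA inputs above both CA inputs and log2FC 0.26 ± 0.080 (adjusted p = 0.945). The inducible subunit PSMB9 had the largest log2FC, 0.31 ± 0.20, and its lowest FA input of 27.33 CPM was barely above its highest CA input of 27.27 CPM. PSMA5 of the alpha ring had the lowest value of the core, 0.073 ± 0.081, from 136.3 and 148.0 CPM in CA and 146.0 and 153.1 CPM in FA, which overlap. Its pull-down values were 145.4 and 153.4 CPM in CA and 164.0 and 161.1 CPM in FA. In the cap, the ATPase PSMC3 had the highest value, 0.15 ± 0.081, from 273.3 and 254.6 CPM in CA and 304.7 and 280.3 CPM in FA, and 336.5 and 332.6 CPM in CA pull-down and 336.7 and 345.2 CPM in FA pull-down. PSMC6, another ATPase, had the lowest, -0.087 ± 0.095, from 82.1 and 83.7 CPM in CA and 80.5 and 75.7 CPM in FA, with 82.9 and 78.5 CPM in CA pull-down and 86.004 and 75.1 CPM in FA pull-down. When only transcripts annotated as protein-coding were summed, PSMA5 became -0.10 and PSMC6 0.18. None of these input differences between FA and CA passed the adjusted limit.

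**Figure D3:**
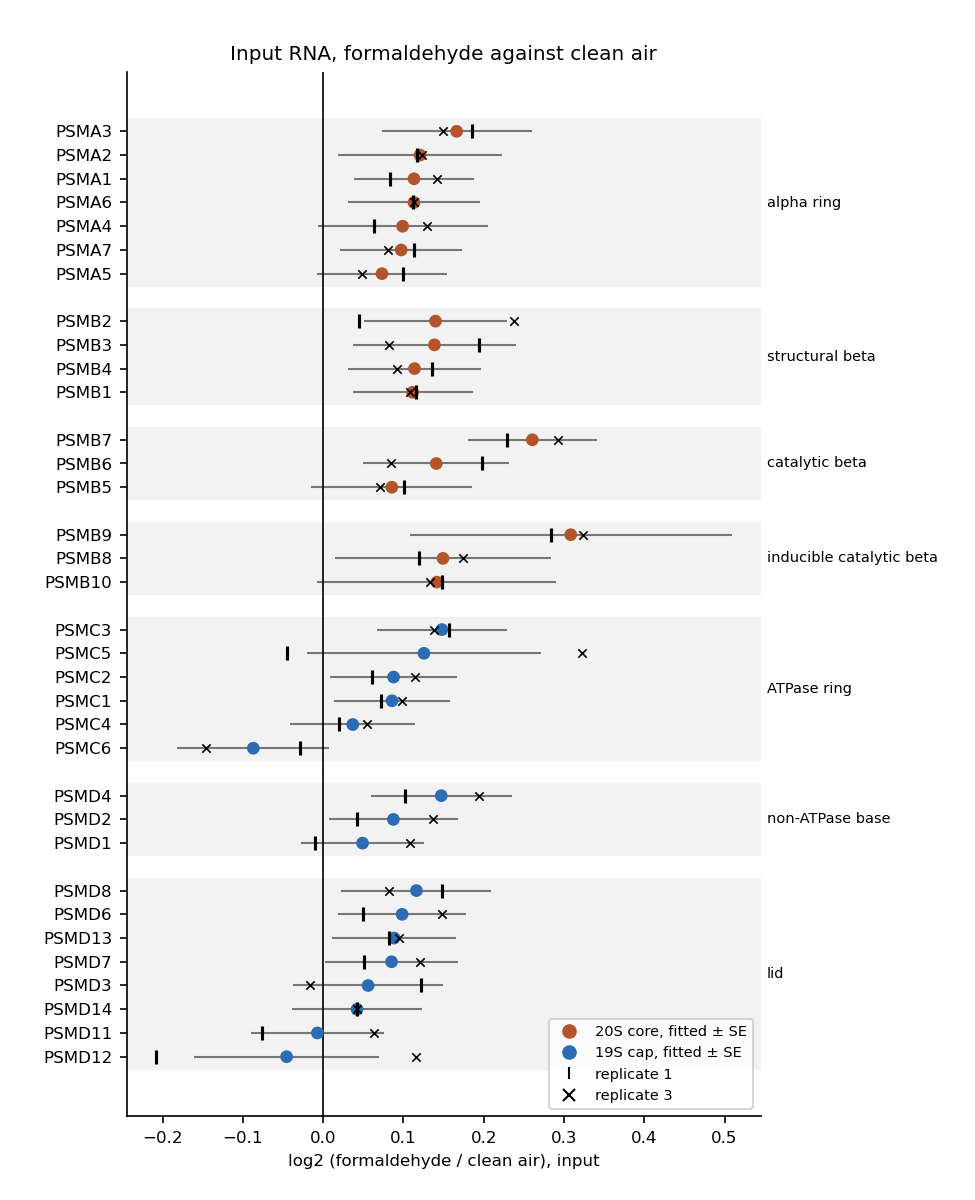
Log2 ratio of FA input to CA input for the 34 subunit mRNAs. Circles with bars are fitted values ± SE (brown for the 20S core, blue for the 19S cap), and ticks and crosses are replicates 1 and 3; all 17 core genes lie above 0, and PSMC6, PSMD12 and PSMD11 of the cap lie below it.

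Levels of different genes were compared per length, in TPM of CA input, RSEM's estimate of transcript abundance scaled for length. PSMA7 of the alpha ring was highest at 199 ± 6.53 TPM (SD, n = 2) and the inducible PSMB10 lowest at 13.8 ± 0.93 TPM, a range of 14.5-fold. The core had a median of 68.3 TPM and the cap 32.6 TPM, with a range of 13.8 to 199 TPM in the core and 23.7 to 88.2 TPM in the cap. After PSMA7 came PSMA4 (139 ± 8.13 TPM), PSMB1 (129 ± 0.43), PSMB4 (123 ± 3.39) and PSMB3 (110 ± 1.75). These followed each other closely. PSMA4 had 121.7 and 163.7 TPM in FA input, a spread that took in PSMB1 and PSMB4, and at the low end PSMB9 (15.5 ± 1.73 TPM) did not differ from PSMB10 or from PSMB2 (17.3 TPM) beyond the spread of the 2 libraries. The constitutive catalytic subunits PSMB5, PSMB6 and PSMB7 stood at 42.4, 68.3 and 62.0 TPM. Their inducible counterparts PSMB8, PSMB9 and PSMB10 stood at 25.3, 15.5 and 13.8 TPM, and at 26.7, 18.5 and 15.2 TPM in FA input. Within each library the TPM ratio of PSMB8 to PSMB5 was 0.572 to 0.659, that of PSMB9 to PSMB6 was 0.189 to 0.288 and that of PSMB10 to PSMB7 was 0.205 to 0.271. The testis-specific alpha subunit PSMA8 had 0 counts in every library, and the thymus-specific PSMB11 had at most 13. Neither was tested, and of the 3 tested genes of that list (ADRM1 and SEM1 among them) 0 passed in any comparison.

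**Figure D4:**
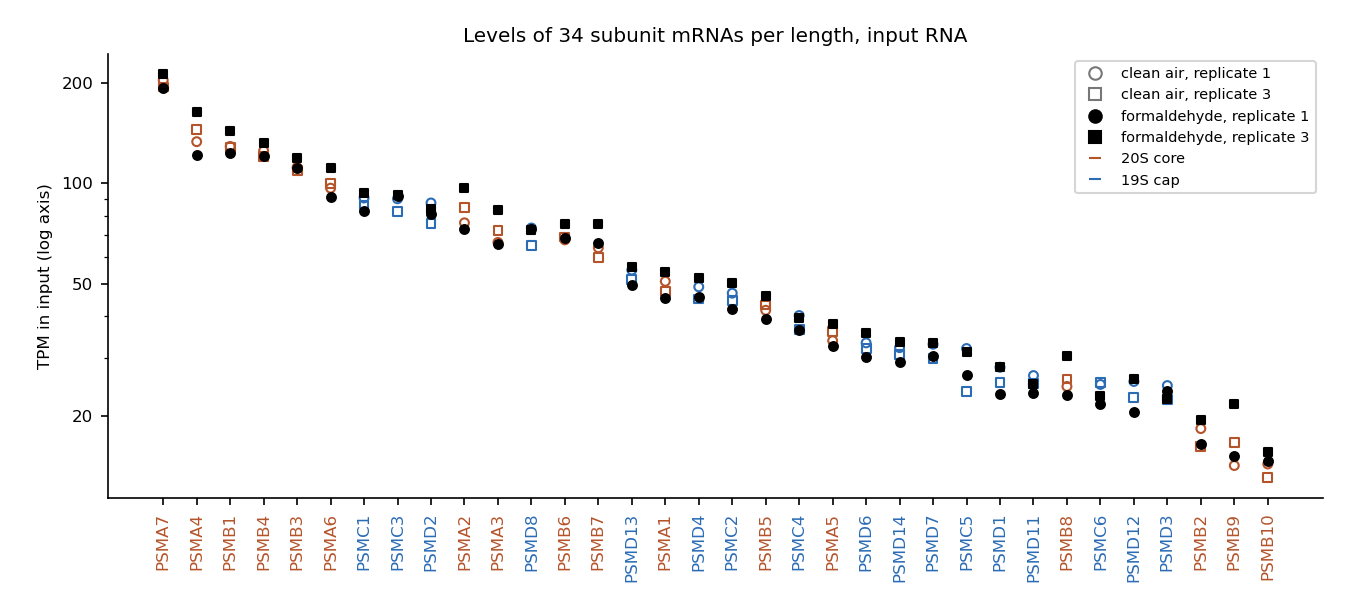
TPM of each subunit mRNA in the 4 input libraries, on a log axis, in the order of the CA mean. Open symbols are CA and filled symbols FA, circles replicate 1 and squares replicate 3; gene names are brown for the 20S core and blue for the 19S cap. PSMA7 is at the top near 200 TPM, and PSMB2, PSMB9 and PSMB10 are at the bottom.

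Members with more guanine in the coding sequence tended to have a higher pull-down log2FC. The guanine share was computed for the most abundant isoform of 31 of the 34 members, and PSMA5, PSMC2 and PSMC6 had no coding sequence for that isoform in the reference. For PSMD13 the annotated coding part of that isoform was only 216 of 1489 bases, with a share of 29.2%. Across the 31 members the share ran from 22.7% in PSMA1 to 32.2% in PSMB10. The median was 27.0%, and 26.6% over all genes with a value. Across the 31 members, Spearman's rho between guanine share and log2FC was 0.800 in FA and 0.827 in CA, and Pearson's r was 0.510 and 0.608. Over 13045 genes rho was 0.459 and 0.569 and Pearson's r was 0.249 and 0.345. Within the core rho was 0.791 and 0.779 (16 genes) and within the cap 0.675 and 0.846 (15 genes). In the input comparison of FA with CA, which used no antibody, rho was 0.337 for the 31 members and 0.148 over all genes. There it was 0.262 within the core and 0.650 within the cap. These are descriptions across genes that share the same libraries, depth and fit, and genes are not independent replicates. Of the 6 members with the highest shares 5 carry a catalytic site: PSMB10 (32.2%), PSMB9 (31.2%), PSMB5 (30.9%), PSMB6 (30.1%) and PSMB8 (30.0%), with the ATPase PSMC3 at 30.8% among them. The alpha subunits PSMA1 (22.7%), PSMA4 (23.4%), PSMA6 (23.7%) and PSMA3 (24.1%) are at the low end together with PSMD12 (23.0%). PSMB3 stands off this relation, with 27.6% guanine and the lowest log2FC, and without it rho was 0.844 in FA and 0.871 in CA and Pearson's r 0.738 and 0.801. PSMB7, the catalytic subunit with the smallest log2FC, has the lowest share of the 6 at 26.2%.

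Over the whole transcript instead of the coding part, rho was 0.775 in FA and 0.869 in CA for 32 members, although the reference length of the isoform equalled the length in the tables for only 9 of them. GC content gave 0.679 and 0.779. Without PSMB3 (31 members) GC content gave 0.788 and 0.895 and guanine 0.815 and 0.914. Over 17934 genes GC content gave 0.377 and 0.529 and guanine 0.407 and 0.540. Within the cap (15 genes) GC content gave 0.529 in FA and 0.839 in CA and guanine 0.507 and 0.832. Length gave -0.065 and -0.13 in pull-down, and -0.65 in the input comparison of FA with CA, where it was -0.14 over all genes. PSMB3 has the shortest main isoform of the members, 773 bases. The 2587 genes with a main isoform of at most 1000 bases had a median log2FC of -0.18 in FA and -0.15 in CA, and the 8 members among them had 0.16 and 0.21.

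**Figure D5:**
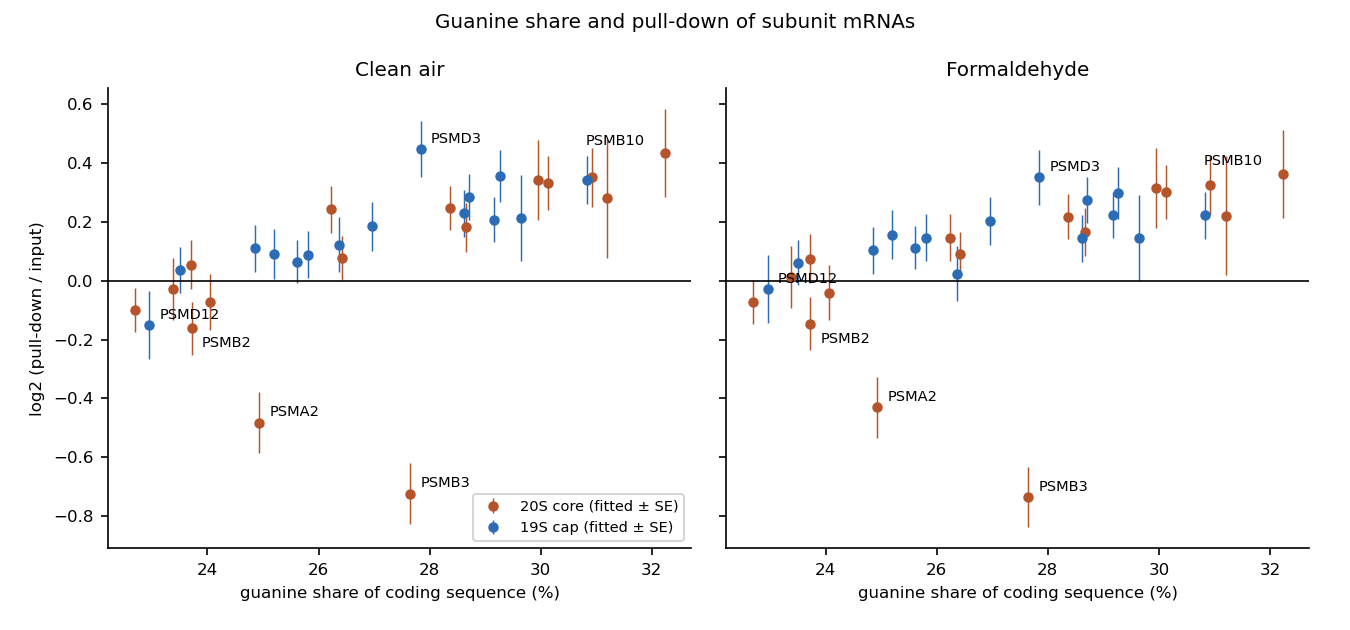
Log2 ratio of pull-down to input (fitted ± SE) against the guanine share of the coding sequence for 31 subunit mRNAs, brown for the 20S core and blue for the 19S cap. The points rise from left to right in both treatments, with PSMB3 and PSMA2 far below the others at 27.6% and 24.9% guanine.

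Promoter sequences (RefSeq, GRCh38.p14, 250 bases before to 50 after the start) were found for 29 of the 34 members. The antioxidant response element bound by NFE2L1 and NFE2L2, searched as TGACNNNGC on both strands, was present in 6 of them, PSMB3, PSMB9, PSMC4, PSMD1, PSMD3 and PSMD12. That is 20.7% of the members' promoters against 14.8% of the 11997 promoters of tested genes and 13.6% of 27305 promoters in all. CCAAT, the CCAAT box, was in 15 of 29 (51.7% against 36.4% and 35.7%). The ETS core CCGGAAG was in 9 of the 16 cap promoters and 0 of the 13 core promoters, or 31.0% of all members' promoters against 18.4% of those of tested genes and 10.7% of all. The searches used both strands, and none of the motifs contains another. The 2 promoters shown, with the antioxidant response element in capitals, belong to the core gene with the largest input log2FC and to a cap gene below 0. PSMB9 is at chr6:32853942-32854241 on the plus strand with the element from base -148, read on the opposite strand, and PSMD12 at chr17:67366528-67366827 on the minus strand with the element from base -165, both relative to the start.
PSMB9 promoter: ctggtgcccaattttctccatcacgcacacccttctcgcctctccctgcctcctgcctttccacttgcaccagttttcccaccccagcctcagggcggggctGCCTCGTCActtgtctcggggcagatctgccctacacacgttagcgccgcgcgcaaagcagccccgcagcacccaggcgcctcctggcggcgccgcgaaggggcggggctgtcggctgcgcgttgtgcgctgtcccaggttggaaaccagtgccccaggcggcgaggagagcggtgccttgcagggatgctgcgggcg
PSMD12 promoter: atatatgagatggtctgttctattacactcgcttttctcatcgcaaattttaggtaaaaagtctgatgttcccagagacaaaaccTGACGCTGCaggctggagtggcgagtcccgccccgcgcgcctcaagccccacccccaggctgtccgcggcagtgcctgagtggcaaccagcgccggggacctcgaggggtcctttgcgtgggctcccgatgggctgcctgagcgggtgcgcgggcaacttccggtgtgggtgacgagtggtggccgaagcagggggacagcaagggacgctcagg

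Other genes of the pathway were read from fixed lists. Among 9 assembly chaperones 1 was lower in FA pull-down and 2 in CA, and 0 were higher. POMP, which assists beta ring assembly, had 137.7 and 145.8 CPM in CA input, 73.6 and 71.2 in CA pull-down, 150.7 and 161.9 in FA input and 91.6 and 93.3 in FA pull-down. Pull-down was far below input in both treatments, with log2FC -0.76 ± 0.082 in FA (adjusted p = 0.0017) and -0.97 ± 0.082 in CA (adjusted p = 0.00038). PSMG2, an alpha ring chaperone, had -0.59 ± 0.12 (adjusted p = 0.0672) and -0.61 ± 0.12 (adjusted p = 0.0483), and the CA call was lost whenever any of the 8 libraries was left out. Its partner PSMG1 had -0.018 and -0.12, and PSMD9, a chaperone of the base, 0.17 and 0.31.

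The ubiquitin receptor ADRM1 had a pull-down log2FC of 0.39 ± 0.11 in FA and 0.50 ± 0.11 in CA (adjusted p = 0.204 and 0.0616) and SEM1, a small lid subunit, 0.066 and 0.080. Among the 5 activators and inhibitors 0 passed, with PSME1 and PSME2, the interferon-inducible activator, at 0.16 and 0.060 in FA and 0.20 and 0.10 in CA, and the nuclear activator PSME3 at 0.10 and 0.11.

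Among the 5 regulators of proteasome gene expression 0 passed in any comparison. NFE2L1 had 0.11 ± 0.15 in FA pull-down and 0.21 ± 0.15 in CA pull-down. In FA input against CA input it had -0.15 ± 0.15, and the list's median was -0.17. In the same input comparison 0 of the genes of any of these lists passed, and the medians were 0.13 for the chaperones and 0.060 for the activators. Of the 8 epithelial markers KRT8 passed in CA pull-down (0.41 ± 0.078, adjusted p = 0.0347), a call lost on leaving out any library, and the list's median was 0.36 in FA and 0.42 in CA. The part of these markers in the subunit values was not tested.

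By isoform, the 34 genes held 323 transcripts, of which 299 had a count and 237 were tested among 67873. None passed the adjusted limit with edgeR, 0 of 237 in each comparison, and 21 in FA pull-down, 23 in CA pull-down, 10 in input and 4 in the interaction had an unadjusted p under 0.05. Over all isoforms the shares at that unadjusted limit were 5.95%, 7.06%, 2.8% and 2.92%, and at the adjusted limit 0.144%, 0.242%, 0% and 0%. DESeq2 on all 8 libraries called 4 of them in FA and 8 in CA, against 1.41% and 1.97% of all isoforms with that tool. The smallest adjusted p was 0.123 in FA and 0.103 in CA. Pseudogene copies bear on PSMC1, whose 13 annotated pseudogenes held 2.42% of the counts of gene and copies together. For the other members that share was at most 0.14%. Overlaps on the opposite strand include PSMA3 with PSMA3-AS1 (4960 counts beside 33303 for PSMA3) and PSMC5 with FTSJ3 (34991 beside 23872). They also include PSMB9 with TAP1 (16801 beside 6666) and PSMC2 with DNAJC2 (8891 beside 29235). On the same strand, PSMB10, PSMA2 and PSMC2 overlap other protein-coding genes, ENSG00000261884 with 968 counts beside 7013 for PSMB10, ENSG00000256646 with 3079 beside 42488 for PSMA2 and PMPCB with 14542 beside 29235 for PSMC2, summed over the 8 libraries. PSMA1 and PSMA6 also overlap protein-coding genes on the same strand, with 172 counts beside 32114 and 426 beside 52629. All these counts are of whole genes. Counts of the members named are therefore uncertain to an extent that is not known.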

How the data were processed

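RNA sequencing reads had been trimmed with cutadapt, aligned with STAR 2.6.0a to GRCh38 and counted per transcript with RSEM 1.2.25. The deposited expected counts are RSEM's unnormalized estimates of reads per transcript, counted without a strand option, and the deposited TPM values are scaled for effective length by RSEM. The authors' tables of DESeq2 fold changes and p-values were not used.

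Expected counts were summed by gene and rounded. Genes with at least 10 counts in at least 2 of the 8 libraries were tested with edgeR 4.0.16 in R 4.3.3 (TMM, quasi-likelihood fit of 4 group means over all 8 libraries, prior count 0.125), with Benjamini-Hochberg adjustment over all genes and a limit of 0.05. CPM are TMM-scaled. The common dispersion was 0.019. Log2FC compare a gene with the other RNA of the library, not absolute amounts. The test was tried on simulated counts. TPM were summed by gene and used within input or as ratios within a library.

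Input and pull-down of a number come from the same RNA pool by the study's methods, and the numbers 1 and 3 come from the names of the deposited tables. Deviations of same-numbered libraries from their group means correlated over genes at 0.380 in CA and 0.246 in FA within a pool, and at 0.203 to 0.283 between pools. The CA value was above the range between pools and the FA value was within it. The source of the shared deviation was not tested. Since the methods give the pairing, the fit with the RNA pool as a block stands beside the pull-down results. With 2 replicates, p-values rest on a spread shared between the groups.

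Values are given in every library for PSMB5 to PSMB10, for the core and cap members with the highest and lowest log2FC in each comparison, and for members past the limit. From the pathway lists, genes past the limit and 10 preset genes are named, and 1 list is not reported here. The members and lists were chosen with earlier results of these data known. Alternatives were DESeq2 1.42.0, other scalings and filters, 4-library fits, blocks, a prior count of 2, protein-coding transcripts only and each library left out. Leaving out transcripts of 200 bases or shorter was added after seeing the data. Gene coordinates are from GENCODE 44, which held 58207 of the 58735 genes. Labels disagree on the antibody clone, which is therefore not named.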

Additional observations from a re-analysis of the deposited data

How the results depend on the processing

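Over all alternatives 296 of 330 counts and differences of medians stayed close to the reported ones and 34 moved. The number of members lower in pull-down, 1 in each treatment as reported, became 2 in both treatments with DESeq2 on all 8 libraries, with DESeq2 on 4 libraries, with no filter, with the replicate block and with the RNA pool block, PSMA2 being the added gene. The number higher, 0 as reported, became 8 in FA and 12 in CA with library size in place of TMM, where 1.74% and 4.5% of all genes were higher. With the RNA pool block it became 11 and 15, where 5.45% and 11.6% of all genes were higher. With the replicate block it became 7 and 11. In CA it became 1 (PSMD3) with DESeq2 on all 8 libraries and with no filter. For the replicate block, DESeq2 and no filter the share of all genes is not given here. Those member counts therefore stand without a background and are not read as a result about the members. The blocks add terms for the replicate number or the RNA pool to the fit. Library size moved the pull-down median of all genes to 0.17 in FA and 0.16 in CA. Why the counts changed was not tested. The replicate block called 0 members in input. Called isoforms became 4 in FA and 8 in CA with DESeq2. Leaving out single libraries gave 0 to 1 members lower in FA and in CA and 0 to 1 higher in CA. The difference of medians, core minus cap, ran from -0.077 to 0.0053 in FA, from -0.135 to 0.050 in CA and from 0.0062 to 0.131 in input.

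The FA log2FC of PSMD12 reversed to 0.14 with library size, a scaling under which the median of all genes was 0.17. It also reversed to 0.079 without FA input replicate 3 and to 0.033 without FA pull-down replicate 3. In input, PSMA5 reversed to -0.10 and PSMC6 to 0.18 with protein-coding transcripts only, and the CA log2FC of PSMB9 reversed to -0.039 without CA pull-down replicate 3, with a highest value of 0.54 without replicate 1. The causes were not tested. Single genes and medians of the members were counted together, and 676 of 769 cases stayed the same. For a single gene that meant the same direction and side of the limit, and for a median a move smaller than its spread. The standard error was largest for PSMB9, 0.20 in input, and the part of depth in it was not tested.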
